A study of Sus scrofa with 64 samples.

Results

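The breed comparison of Large White (LW) with Iberian (IB) pigs was examined in the adrenal cortex, the adrenal medulla and the thyroid gland, which made up 12 of the 64 arrays of the series. The arrays were taken by their tissue and breed labels, and gave 6 LW and 6 IB arrays from 4 animals. The LW animals were a male of 38.8 kg and a female of 36.2 kg, both aged 87 days. The IB animals were a male of 25.4 kg and a female of 32.8 kg, both aged 89 days. All were untreated piglets that came from separate breeding companies and were then kept together on the same diets, so that breed and origin cannot be told apart. Breed differences below are LW minus IB on the log2 scale of the deposited values, where a difference of 1 is a doubling. With 2 animals a breed, an exact permutation test of 1 probe could not give a two-sided p under 0.333, and the calls rest on a moderated test (limma) across all 23935 probes.

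The adrenal gland joins 2 endocrine organs. Its cortex makes corticosteroids from cholesterol under the control of pituitary corticotropin, and its medulla is built of chromaffin cells, which make adrenaline and store it in granules together with chromogranins and peptides. The thyroid gland takes up iodide into follicle cells and couples it to thyroglobulin to make thyroid hormone, while scattered C cells between the follicles make calcitonin.

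The thyroid label fitted its markers. The mean log2 level of 5 follicle cell markers was 9.30 and 8.89 in the LW male and female thyroid, against 8.33 and 8.52 in the IB male and female thyroid, and lay between 3.40 and 3.79 in the adrenal arrays. The 2 adrenal labels were not cleanly separated. The mean level of 5 cortical markers was 10.65 and 10.86 in the LW medulla, against 10.41 and 10.74 in the IB medulla, which was close to the 10.86 and 11.01 of the LW cortex and the 10.65 and 10.72 of the IB cortex. The tissues were separated mechanically, and both kinds of adrenal array held both kinds of cell. The breed difference in a bulk sample cannot tell fewer cells of a type from less RNA per cell. The deposited values carry no detection call. As a guide to the background, the mean of 5 Y-linked probes lay between 3.55 and 3.65 in the arrays of the females, and a difference from a breed that read at about that level or lower is a lower bound on its size.

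Over the mean of the 3 tissues, 56 of 23935 probes (0.234%) passed the threshold of an adjusted p under 0.05, 26 of them higher (0.109%) and 30 lower (0.125%) in LW. The unadjusted p was under 0.05 for 12.6% of all probes. The 56 differences measured 0.90 to 3.64 log2 units in size, with a median of 1.50, against a median size of 0.11 over all probes. Of the 56, 37 had a gene name. No overlap between the breeds in any of the 3 tissues was seen for 48 of the 56, against 5.92% of all probes. The median difference of all probes was 0.00, which the joint normalization of the arrays sets close to 0. The count depended on which animal was left out, with 5 probes past the threshold without the LW male, 2 without the LW female, 18 without the IB male and 55 without the IB female, of which 27 were among the 56. All 56 kept their sign in each case, which probes chosen for a wide gap on these same arrays could hardly fail to do.

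Higher in LW, first, was a probe that the study names IGHM, the heavy chain of immunoglobulin M. It read 10.14 and 9.80 in the LW male and female cortex against 6.50 and 6.61 in the IB male and female cortex, 10.15 and 10.09 against 6.25 and 6.61 in the medulla, and 9.54 and 9.39 against 6.17 and 6.03 in the thyroid gland. All 6 LW arrays lay above all 6 IB arrays, and the difference was 3.49 ± 0.11 (SE, adjusted p = 0.00372, limma), or 11.2-fold. It was past the threshold in each of the 16 alternative settings. The other 15 probes named IGHM differed by -0.72 to 0.28 and did not pass, and the other 2 measured B and plasma cell markers, CD79B and JCHAIN, differed by -0.02 and -0.30. The mean levels of those 15 IGHM probes were 3.01 to 4.60, at or near the background, where a difference could hardly be seen. Only 3 of the 17 genes of the B and plasma cell list had a probe. The difference was thus seen in 1 probe, and the part of B cells in it was not tested.

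SSX2IP, a centrosome and cell junction protein, was also higher. It read 6.06 and 6.17 in the LW male and female cortex against 3.48 and 3.50 in the IB male and female cortex, and 6.93 and 6.66 in LW thyroid against 4.14 and 3.89 in IB thyroid. Its breeds did not overlap in any of the 3 tissues, and the difference of 2.69 ± 0.18 (SE, adjusted p = 0.0142, limma) was at least 6.45-fold, since the IB adrenal values lay about the background. HTATIP2, an oxidoreductase first described as a partner of a viral transactivator, was higher by 1.78. DATF1 was higher by at least 1.96 and SEMA3A, a secreted axon guidance cue, by at least 1.95. Their IB values lay below the background in all 3 tissues. LMBRD2, a membrane protein, ZNF133, a zinc finger protein, and LY6E, an interferon-induced surface protein, were higher by 1.15, 1.06 and 0.97. The IB adrenal values of LMBRD2 lay below the background, so its difference is a lower bound.

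Lower in LW was FSTL4, a secreted follistatin-like protein. It read 7.53 and 6.83 in the LW male and female cortex against 9.90 and 9.85 in the IB male and female cortex, 7.45 and 7.12 against 9.64 and 9.85 in the medulla, and 5.20 and 5.08 against 7.79 and 8.04 in the thyroid gland. The gap held in every tissue, and the difference of -2.64 ± 0.15 (SE, adjusted p = 0.0104, limma) made it 6.25-fold lower. SYN3, a synapsin of nerve terminals, read 5.56 and 5.72 in the LW cortex against 8.02 and 7.86 in the IB cortex, and 5.56 and 5.48 in the LW thyroid against 7.12 and 7.06 in the IB thyroid. Its difference was -2.03 ± 0.10 (SE, adjusted p = 0.0104, limma), and it was the only member of 11 measured genes of the neuron list past the threshold, the median of that list being -0.02.

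ARMCX1, a protein of the mitochondrial outer membrane, was lower by a difference of -2.15, the zinc finger gene ZNF12 by -1.96, the transcription factor TFCP2 by -1.91, C21orf88 by -1.73 and BVES, a cyclic AMP binding membrane protein, by -1.63. The LW values of ARMCX1, and those of C21orf88 in thyroid, lay about the background, so both differences are lower bounds in size. The acute phase protein haptoglobin (HP) had a difference of -1.28. It read 6.08 and 5.28 in the LW medulla against 7.73 and 7.68 in the IB medulla. For BVES the breeds were farther apart in thyroid (-2.15) than in cortex (-1.30) or medulla (-1.44), without a test of that contrast passing (adjusted p = 0.513, limma). The largest difference without a gene symbol, in a probe that the study lists as a hypothetical protein, read 4.44 and 4.12 in the LW cortex against 7.51 and 7.55 in the IB cortex, with a difference of -3.40 over the 3 tissues.

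**Figure D1:**
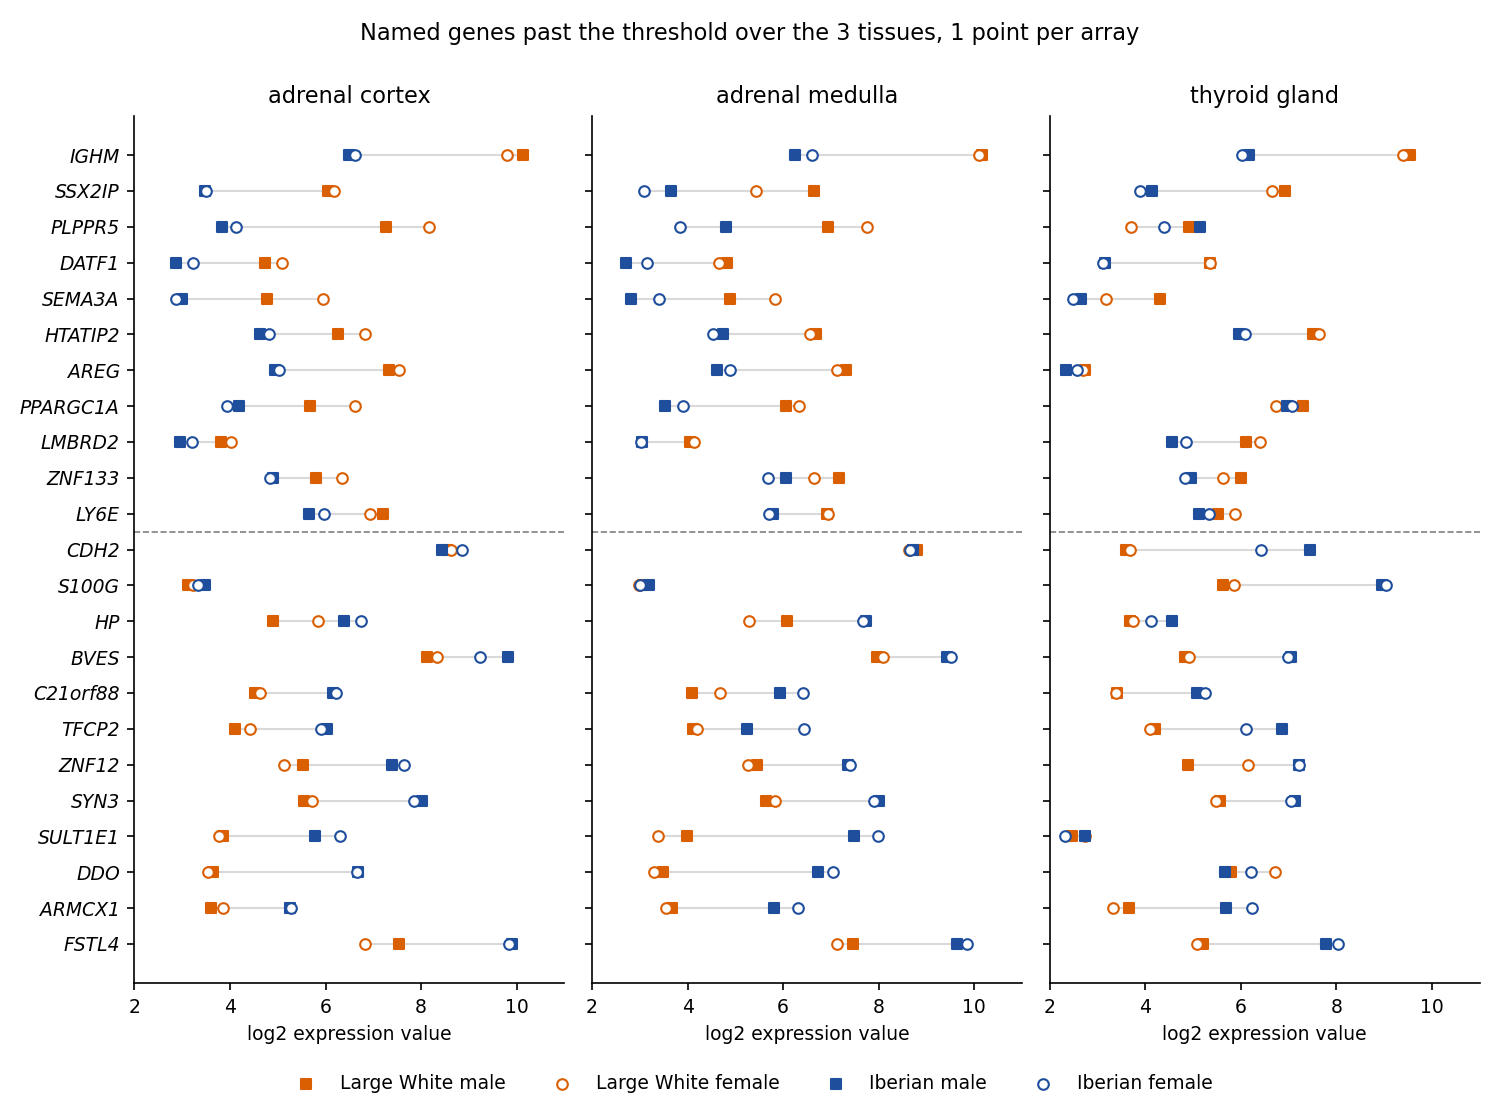
Each row is 1 of 23 genes whose brightest probe passed the threshold over the 3 tissues, up to 12 in each direction, with 1 panel per tissue and the log2 expression value on the horizontal axis. Orange marks are the LW male (filled square) and LW female (open circle), blue marks the IB animals in the same shapes, and the dashed line separates genes higher from genes lower in LW. IGHM, SSX2IP, FSTL4 and SYN3 were apart in all 3 panels, whereas AREG, SULT1E1 and DDO were far apart in the adrenal panels and close in thyroid, and S100G and CDH2 were far apart in thyroid and close in the adrenal panels. The close values of AREG, SULT1E1 and S100G lay below the background.

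Genes with several probes often differed in 1 of them only, and the genes of this paragraph were picked out after their values were seen. Of the 37 named probes, 19 belonged to 18 genes with further probes, and the 42 other probes of these genes differed by -0.88 to 1.11, with a median size of 0.09. Among these 18 were genes named above, IGHM with 16 probes, and SSX2IP, SYN3 and BVES with 2 each. S100G, named below, also had 2. In each of these only the probe given passed over the 3 tissues. The 15 IGHM probes near the background were among the 42. The largest of all differences, 3.64, came from a probe that the platform names DDX39B, an RNA helicase, and the study names ATP6V1G2, a proton pump subunit. It read 7.93 and 9.50 in the LW cortex against 5.24 and 5.10 in the IB cortex, and the other DDX39B probe differed by -0.69. A probe that the platform names PTGES3, a prostaglandin synthase and chaperone partner, and the study names PTGS2 was higher by 3.25, and the other PTGES3 probe by 0.56 without passing. One probe of B2M, the light chain of class I histocompatibility molecules, read 11.65 and 11.63 in the LW cortex against 12.95 and 12.87 in the IB cortex, a difference of -1.02 over the 3 tissues, and the other 8 B2M probes differed by -0.17 to 0.74. By contrast, 3 of the 4 probes of FGL2, a fibrinogen-like immune protein, went the same way, with differences of -1.27, -1.08 and -0.88, of which the first 2 passed. Both probes of the fatty acid binding protein FABP5 had a positive difference, 1.05 (adjusted p = 0.0262, limma) and 1.11 (adjusted p = 0.0531, limma).

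In single tissues, with the spread pooled over the 12 arrays, 49 probes (0.205%) passed in the adrenal cortex, 29 (0.121%) in the medulla and 66 (0.276%) in the thyroid gland. This fit treats the 12 arrays of 4 animals as independent, and with only the 4 arrays of each tissue 20 passed in cortex, 16 in medulla and 17 in thyroid. In the pooled fit, in cortex 30 were higher (0.125%) and 19 lower (0.0794%) in LW, in medulla 13 (0.0543%) and 16 (0.0668%), and in thyroid 31 (0.13%) and 35 (0.146%). With 2 animals a breed the values of a probe often failed to overlap in 1 tissue, in cortex for 41.5%, in medulla for 31.4% and in thyroid for 44.4% of all probes. Of all these, 17 probes passed in each of the 3 tissues, 13 in exactly 2 and 67 in exactly 1. Without the IB male the counts were 8 in cortex, 17 in medulla and 20 in thyroid, without the IB female they were 32 in cortex and 35 in thyroid, and without the LW male 19 in medulla.

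The adrenal differences included genes of growth factor signalling, energy metabolism and steroid handling. AREG, which encodes amphiregulin, a ligand of the epidermal growth factor receptor, read 7.32 and 7.54 in the LW male and female cortex against 4.93 and 5.03 in the IB male and female cortex, and 7.31 and 7.12 against 4.61 and 4.90 in the medulla. In thyroid it was low in both breeds, at 2.74 and 2.69 in LW against 2.35 and 2.57 in IB. These values lay below the background, where a breed difference could hardly be seen. The breeds were separated in both adrenal tissues by a similar step, 2.45 ± 0.15 in cortex (SE, adjusted p = 0.00016, limma) and 2.46 ± 0.15 in medulla (adjusted p = 0.00012), or 5.46-fold and 5.52-fold.

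SULT1E1, the oestrogen sulfotransferase, moved the other way. It read 3.98 and 3.39 in the LW male and female medulla against 7.48 and 7.99 in the IB male and female medulla, and 3.85 and 3.76 against 5.79 and 6.31 in the cortex. The LW values lay far below the IB values in both, with differences of -4.04 ± 0.26 in medulla (SE, adjusted p = 0.00013, limma), which is at least 16.5-fold lower, and -2.24 in cortex (adjusted p = 0.0098). The LW values were close to the background, so both are lower bounds in size. In thyroid the probe read 2.48 and 2.74 in LW against 2.74 and 2.33 in IB, below the background, where a breed difference could hardly be seen. DDO, the D-aspartate oxidase, read 3.64 and 3.54 in the LW cortex against 6.69 and 6.65 in the IB cortex, and 3.49 and 3.30 in the LW medulla against 6.72 and 7.04 in the IB medulla. Its thyroid values of 5.79 and 6.72 in LW against 5.66 and 6.21 in IB overlapped, so that the adrenal difference of -3.08 in cortex (adjusted p = 0.0022, limma) and -3.49 in medulla (adjusted p = 0.00077), again with LW at the background, had no counterpart there.

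PPARGC1A, the coactivator of mitochondrial biogenesis and the only one of 28 measured fatty acid metabolism genes past the threshold, read 5.68 and 6.62 in the LW cortex against 4.18 and 3.94 in the IB cortex. In the medulla it read 6.07 and 6.32 in LW against 3.53 and 3.91 in IB, and in the thyroid 7.29 and 6.74 in LW against 6.97 and 7.07 in IB. The adrenal values were thus apart and the thyroid values mixed, with differences of 2.09, 2.48 and 0.00. The IB medulla values lay about the background, so 2.48 is a lower bound. PLPPR5, a lipid phosphatase-related membrane protein, read 7.27 and 8.17 in the LW cortex against 3.83 and 4.13 in the IB cortex, a difference of 3.74 ± 0.49 (SE, adjusted p = 0.018, limma). In medulla its difference of 3.03 missed the threshold (adjusted p = 0.052), and in thyroid it was -0.46.

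**Figure D2:**
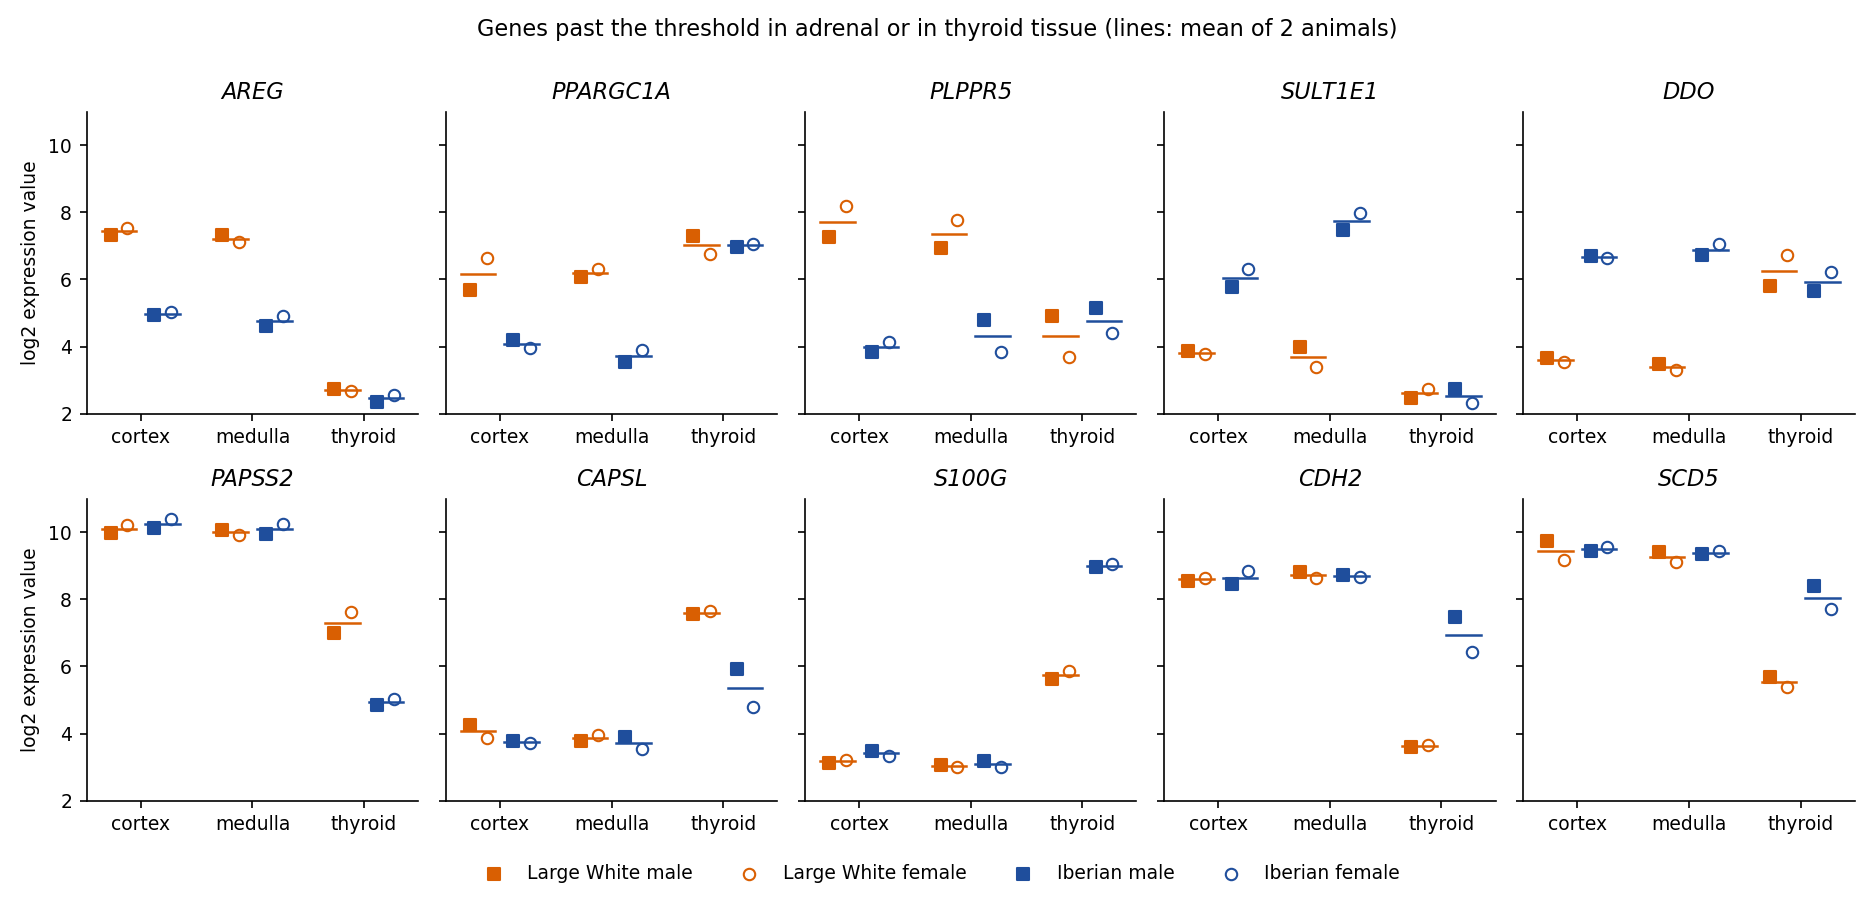
Each panel shows the log2 expression value of 1 gene in the cortex, medulla and thyroid of the LW male and female (orange, left of each group) and the IB male and female (blue, right), with a line at the mean of the 2 animals. In the upper row the breeds were apart in both adrenal tissues and close in thyroid. In the lower row, PAPSS2 and CAPSL were higher and S100G, CDH2 and SCD5 lower in LW thyroid, with adrenal values close together. AREG and SULT1E1 in thyroid, and S100G in the adrenal tissues, read below the background. CAPSL in the adrenal tissues read near it.

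Several further probes passed in the cortex alone and are named here after their values were seen. KIT, a receptor tyrosine kinase known in pigs for its part in coat colour, read 6.19 and 6.68 in the LW cortex against 4.83 and 4.60 in the IB cortex, a difference of 1.72 (adjusted p = 0.025, limma). Its differences in medulla and thyroid, 1.35 and 1.28, ran the same way without passing. NR5A2, a nuclear receptor related to the steroidogenic factor NR5A1, was higher by 1.06, with 5.70 and 5.79 in LW against 4.82 and 4.55 in IB. SATB1, a chromatin organiser, was higher by 1.37 and SNTB1, a syntrophin, had a difference of -1.05.

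ENO2, the neuron-specific enolase found in nerve and chromaffin cells, also passed in the cortex, with 9.15 and 8.93 in LW against 6.25 and 7.25 in IB, a difference of 2.29 (adjusted p = 0.027, limma). Several genes of chromaffin cells, picked out from their lists, lay the same way in these arrays. PNMT, which makes adrenaline, read 9.90 and 10.68 in the LW cortex against 9.09 and 8.08 in the IB cortex (difference 1.70, adjusted p = 0.21, limma). CHGB, a granule protein, read 11.77 and 12.06 against 11.22 and 9.80. None of the 9 catecholamine genes or the 16 granin and peptide genes measured passed the threshold, and their median differences in cortex were 0.42 and 0.99. Over the mean of the 3 tissues, 8 of the 9 and 11 of the 16 had a difference above 0. The lowest differences were -0.05 and -0.37. In the medulla the breeds overlapped, with PNMT at 11.66 and 11.26 in LW against 11.73 and 10.74 in IB and CHGB at 12.84 and 12.43 in LW against 12.79 and 12.15 in IB. The median differences there were 0.23 for the catecholamine and 0.15 for the granin and peptide list. The mean of 3 chromaffin markers was 9.49 and 10.06 in the LW cortex against 8.89 and 7.87 in the IB cortex, and its part in the cortical results was not tested.

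**Figure D3:**
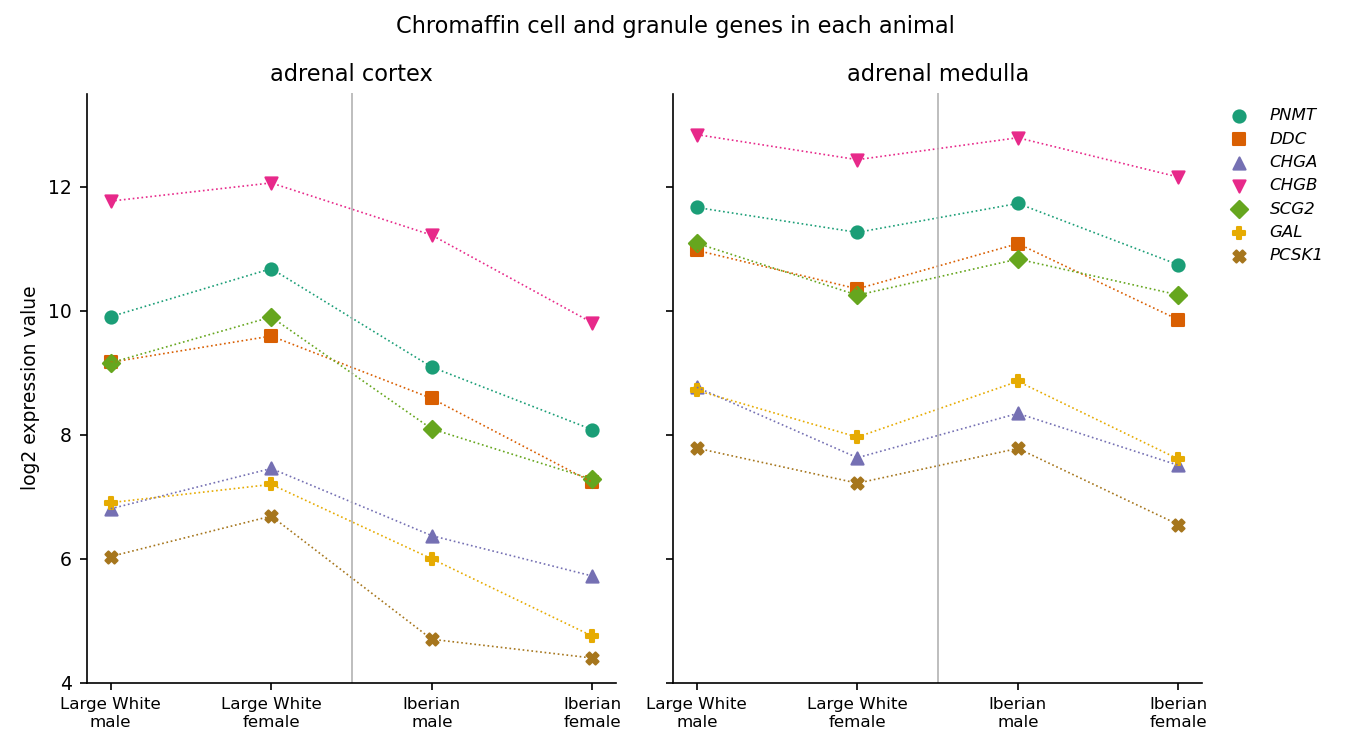
The log2 expression value of 7 genes of chromaffin cells and their granules, picked out from their lists, is plotted for the LW male, LW female, IB male and IB female, in the adrenal cortex (left) and the adrenal medulla (right). In cortex all 7 genes lay above both IB animals in both LW animals and were lowest in the IB female, and none of the 7 passed the threshold. For scale, the breeds did not overlap in cortex for 41.5% of all probes. The other members of the lists are not shown, and their directions in cortex were not counted. In medulla the LW and IB animals overlapped.

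No corticosteroid gene passed in either adrenal tissue. Of the steroid synthesis list 14 of 23 genes had a probe, and the median difference was 0.13 in cortex and 0.14 in medulla. Over the 3 tissues, 10 of the 14 were above 0. Without overlap in any tissue, 4 were higher and 1 lower in LW, against 5.92% of all probes. The unadjusted p (limma) was under 0.05 for 6 of its 20 probes, against 12.6% of all probes. CYP11A1, which starts steroid synthesis, read 12.81 and 12.85 in the LW cortex against 12.60 and 12.64 in the IB cortex, and CYP17A1, which commits it to cortisol, read 11.69 and 12.16 against 11.59 and 11.56. The largest difference of the list was in HSD3B1, the next enzyme of the route, with 12.09 and 12.37 in LW against 11.11 and 11.67 in IB cortex (0.75 over the 3 tissues, adjusted p = 0.25, limma). The corticotropin receptor MC2R differed by 0.17, and the angiotensin receptor AGTR2 by 1.09 in cortex with 7.34 and 7.94 in LW against 6.37 and 6.73 in IB (adjusted p = 0.17). None of the 12 measured receptor and signalling genes passed.

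In the thyroid gland, beside probes such as IGHM and FSTL4 that passed in each of the 3 tissues, a calcium binding protein and an adhesion protein were lower in LW. S100G, the calcium binding protein calbindin-D9k, read 5.62 and 5.85 in the LW male and female thyroid against 8.95 and 9.04 in the IB male and female thyroid. The breeds were far apart and the animals within a breed close, and the difference was -3.26 ± 0.14 (SE, adjusted p = 1e-05, limma), or 9.59-fold lower in LW. In the adrenal arrays the probe stayed between 2.99 and 3.48, below the background, where a breed difference could hardly be seen. CDH2, N-cadherin, read 3.61 and 3.67 in the LW thyroid against 7.46 and 6.43 in the IB thyroid, a difference of -3.30 (adjusted p = 0.001), while its adrenal values lay between 8.44 and 8.85 in both breeds. The LW thyroid values of CDH2 were at the background, and its difference there is a lower bound in size.

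SCD5, a fatty acid desaturase, read 5.70 and 5.38 in the LW thyroid against 8.39 and 7.71 in the IB thyroid, a difference of -2.51 ± 0.25 (SE, adjusted p = 0.0028, limma). PAPSS2, which makes the donor for sulfation, ran the other way at 6.98 and 7.61 in LW against 4.85 and 5.02 in IB, 5.16-fold higher. CAPSL, a calcyphosine-like protein, read 7.56 and 7.65 in LW against 5.91 and 4.80 in IB. The adrenal differences were small for SCD5, at -0.05 in cortex and -0.13 in medulla, and for PAPSS2, at -0.16 and -0.10. CAPSL lay between 3.55 and 4.26 in the adrenal arrays, near the background, where a breed difference could hardly be seen. Its breeds did not overlap in cortex, at 4.26 and 3.88 in LW against 3.76 and 3.73 in IB. STAR, the cholesterol carrier of steroid synthesis, read 4.41 and 4.49 in the LW thyroid against 3.22 and 3.36 in the IB thyroid. The IB values lay below the background, so the difference of 1.16 (adjusted p = 0.0069, limma) is a lower bound. In the adrenal arrays STAR read 12.58 to 12.94, and its second probe differed by 0.09 in thyroid.

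Other thyroid results were picked out after their values were seen. CALCB, a peptide of the calcitonin family, read 6.26 and 6.21 in LW against 8.37 and 7.69 in IB (difference -1.80, adjusted p = 0.024, limma), and CRSP-2, the calcitonin receptor-stimulating peptide 2 of pigs, read 3.82 and 3.78 in LW against 4.79 and 5.24 in IB. CALCB was 1 of the 2 measured genes of the C cell list, whose mean was 4.77 and 4.83 in LW thyroid against 5.71 and 5.44 in IB thyroid, and CALCR, the other, differed by 0.25. Parathyroid hormone (PTH), the marker of the neighbouring gland, was at most 3.32 in the 12 arrays. The part of cell makeup in these values was not tested. A2M, a plasma protease inhibitor, was higher by 1.41 and the surface protein TM4SF1 by 1.06. Both probes of MAN1C1, a Golgi mannosidase, were higher, by 1.37 and 1.38.

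The thyroid hormone genes did not pass. Of the 17 measured genes of hormone synthesis none was called in thyroid, with a median difference of 0.26. Thyroglobulin (TG) read 13.43 and 13.43 in LW against 12.54 and 13.18 in IB, and the thyrotropin receptor TSHR 6.16 and 5.62 in LW against 5.71 and 5.00 in IB. The breeds overlapped for TSHR and not for TG. SLC5A5, the iodide transporter, showed the widest gap, at 11.73 and 10.45 in LW against 8.77 and 9.75 in IB, with a difference of 1.83 ± 0.43 (SE, adjusted p = 0.13, limma).

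**Figure D4:**
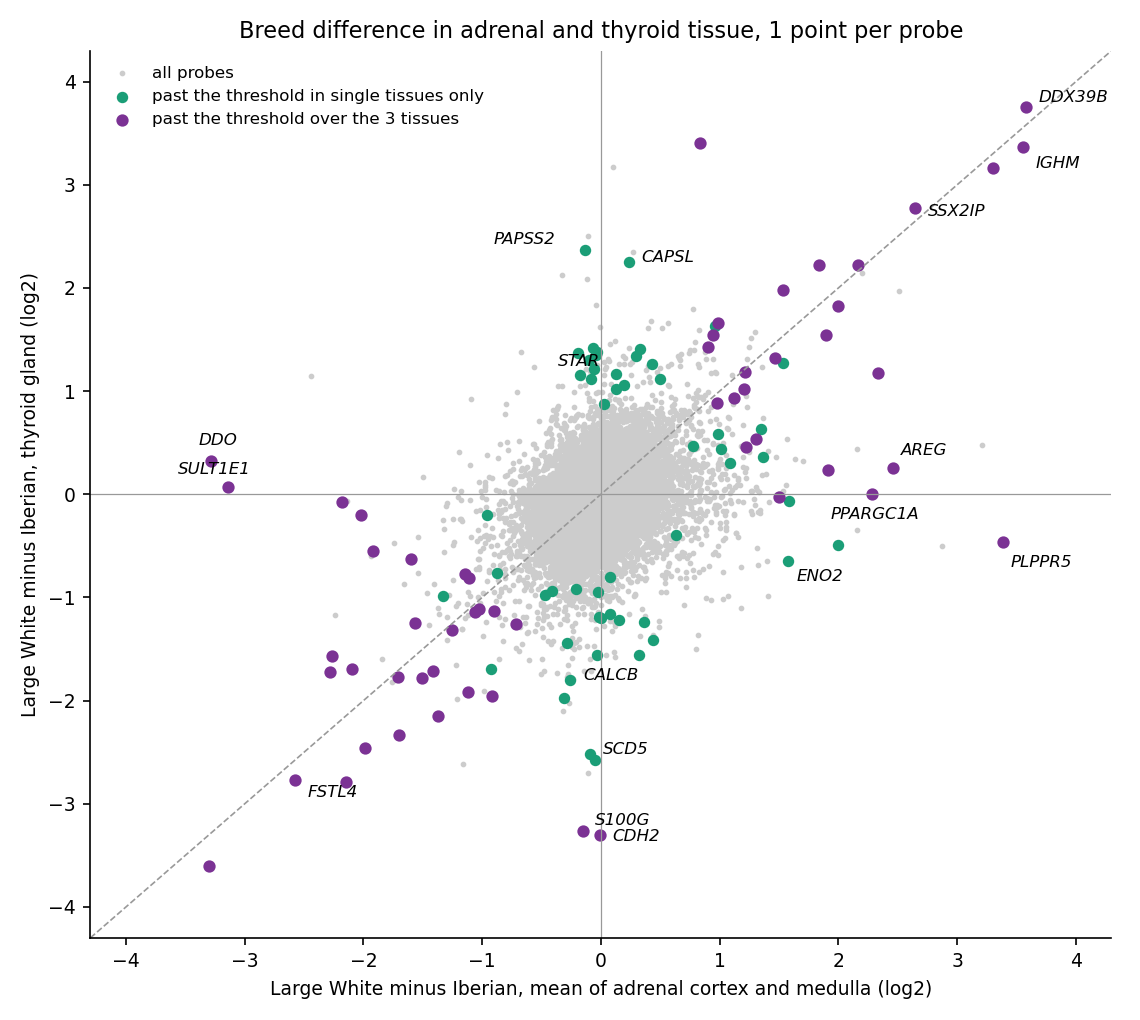
The breed difference (LW minus IB, log2) in the mean of the adrenal cortex and medulla is on the horizontal axis and that in thyroid on the vertical axis, with 1 point per probe. Purple points passed over the 3 tissues, green points in single tissues only, and the dashed line marks equal differences. Probes such as IGHM, SSX2IP and FSTL4 lay near that line, AREG, PLPPR5, PPARGC1A, SULT1E1 and DDO near the horizontal axis, and S100G, CDH2, SCD5 and PAPSS2 near the vertical axis.

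Whether a breed difference itself differed between thyroid and adrenal was tested as an interaction, with each animal giving its thyroid value minus the mean of its adrenal values. No probe passed (0%) in this limma test, whereas 1696 had an unadjusted p under 0.05. The smallest adjusted p was 0.0846, for S100G, whose thyroid minus adrenal difference was -3.11. For AREG it was -2.20 (adjusted p = 0.16), for PAPSS2 2.50 (0.182) and for DDO 3.60 (0.182). AREG in thyroid and S100G in the adrenal arrays read below the background. For these the contrast cannot tell an absent breed difference from an unseen one. Leaving out the LW male gave 13 calls and leaving out the LW female 23, so the split of these genes between adrenal and thyroid was not settled with these 4 animals.

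The same 4 animals gave 52 arrays of 13 other tissues, which share the animals and so are no independent check. Of the 56 probes called over the 3 tissues, 53 kept the sign of their difference in the mean of the other 13 tissues and 28 kept it in each of the 13. Their median size there was 0.73. IGHM, SSX2IP, FSTL4 and SYN3 had breeds that did not overlap in any of the 13, and IGHM differed by 3.07 in their mean. AREG, in contrast, was higher in LW in 5 of the 13 and lower in 8, with a mean difference of -0.07, and levels of 2.88 and 2.99 in LW against 3.02 and 2.99 in IB. These mean levels lay below the background, where a breed difference could hardly be seen. The mean over the 13 tissues hid wide differences in single ones. S100G differed by -0.12 in the mean and by -3.03 to 1.46 in single tissues, DDO by -0.47 and -2.14 to 0.80, SULT1E1 by -0.29 and -1.62 to 0.56, and PLPPR5 by -0.18 and -0.83 to 0.40. DDO was lower in LW without overlap in 6 of the 13 tissues and SULT1E1 in 7. For scale, 31.4% to 44.4% of all probes did not overlap, in either direction, in a single one of the 3 tissues. The shares of all probes were not computed for the 13 tissues, neither for overlap nor for the kept signs, so these counts have no reference.

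When the difference over the 3 tissues was tested against that over the other 13, no probe passed (0%) with limma, and 2065 had an unadjusted p under 0.05. AREG came closest (1.79, adjusted p = 0.0503), followed by PLPPR5 (2.28), DDO (-1.61) and SULT1E1 (-1.78), each with an adjusted p of 0.0578. Without the pineal gland, whose LW male array stood apart from its group in the study, 3 probes passed, AREG, PLPPR5 and an unnamed probe, a setting chosen after seeing the data. Without the IB female 18 passed and without the LW female 5.

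**Figure D5:**
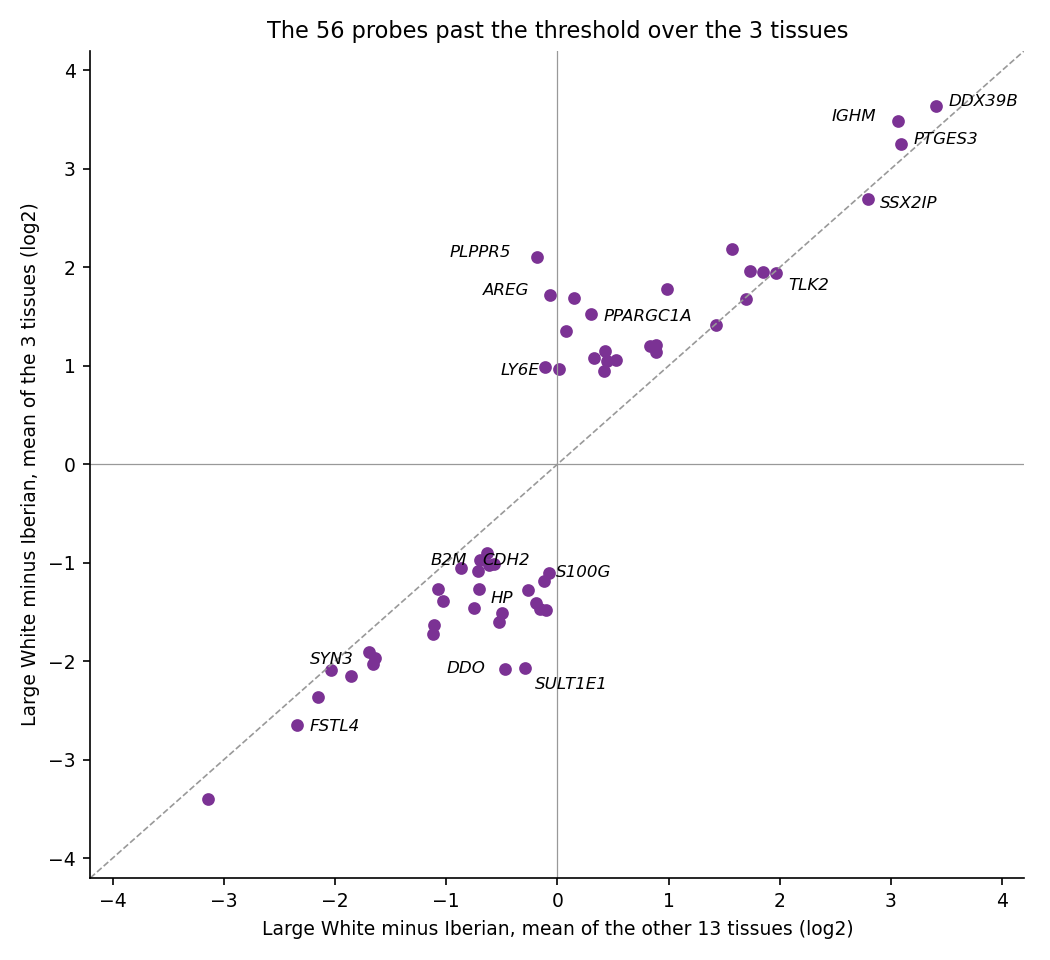
The breed difference (LW minus IB, log2) of the 56 probes called over the 3 tissues is plotted against their difference in the mean of the other 13 tissues of the same animals, with the dashed line at equal values. The horizontal axis was not used to choose the probes, but comes from the same 4 animals. IGHM, DDX39B, PTGES3, SSX2IP and FSTL4 lay near the line, and AREG, PLPPR5, SULT1E1, DDO, S100G and CDH2 near 0 on the horizontal axis.

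Among 20 gene lists of endocrine, stress, metabolic and immune function, 3 of 686 probes passed in any of the 4 breed contrasts, against 0.451% of all probes. These were PPARGC1A, STAR in thyroid and the B2M probe. List medians over the 3 tissues ran from -0.13 for extracellular matrix to 0.28 for catecholamine genes, against 0.00 for all probes. The next were the granin and peptide list at 0.24, glucocorticoid responsive genes at 0.23 and circadian clock genes at 0.21. Steroid synthesis followed at 0.18 and heat shock genes at 0.16, and no member of these lists passed over the 3 tissues. The breeds overlapped in the mean of the granin and peptide list. There the IB male lay above the LW female (6.66), and only the IB female was low (6.27). The breeds also overlapped in the mean of the circadian clock genes. There the IB female lay above the LW male (6.56), and only the IB male was low (6.17). Of the 16 measured glucocorticoid responsive genes 15 were above 0, and their mean was 8.06 and 7.99 in the LW male and female, against 7.70 and 7.82 in the IB male and female. Oxidative phosphorylation and antioxidant enzymes each had a median of 0.11, cell cycle -0.08, cholesterol synthesis -0.06 and class II histocompatibility genes -0.08. In oxidative phosphorylation 62 of 70 genes were above 0, though no gene passed. COX7C, a subunit of cytochrome oxidase, read 11.10 and 11.10 in the LW cortex against 10.38 and 10.64 in the IB cortex, and 11.35 and 11.43 against 10.79 and 10.88 in the thyroid gland, a difference of 0.54 (adjusted p = 0.162, limma).

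Immediate early genes, which are switched on within minutes of a stimulus, averaged 7.66 and 6.47 in the LW male and female cortex against 6.64 and 6.65 in the IB cortex, so that the LW male alone stood high. The phosphatase gene DUSP1 read 11.46 in the LW male cortex and 9.44 in the LW female cortex, against 9.35 and 8.97 in the IB cortex. Heat shock genes had a mean of 9.78 and 9.75 in the LW cortex against 9.37 and 9.47 in the IB cortex, without overlap. Their median difference was 0.16, with 21 of 22 above 0 and none past the threshold, led by the chaperones DNAJB1 (0.96, adjusted p = 0.30, limma) and BAG3 (0.79, adjusted p = 0.11). BAG3 read 9.48 and 9.05 in the LW cortex against 8.37 and 8.69 in the IB cortex and was apart in each of the 3 tissues.

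Extracellular matrix genes had a median of -0.35 in thyroid. The collagen COL14A1 read 8.41 and 9.11 in the LW thyroid against 10.06 and 9.97 in the IB thyroid, and decorin (DCN) 8.74 and 9.81 against 10.45 and 10.48, without passing. Smooth muscle markers averaged 7.31 and 7.33 in the LW thyroid against 7.63 and 8.09 in the IB thyroid. Of 16 measured macrophage and monocyte markers 4 were above 0, with list means of 6.10 and 6.12 in the LW cortex against 6.52 and 6.23 in the IB cortex. LYZ, lysozyme, read 6.86 and 6.09 in the LW medulla against 9.76 and 8.36 in the IB medulla, and 8.01 and 7.54 against 6.58 and 6.68 in the thyroid, with no call. In thyroid the macrophage and monocyte list means overlapped, at 5.63 and 5.84 in LW against 5.91 and 5.72 in IB. Smooth muscle markers averaged 7.94 and 7.66 in the LW cortex against 7.66 and 7.45 in the IB cortex. The markers thus did not run the same way across tissues, and their part in the HP and FGL2 results was not tested.

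ECHDC1, an enzyme of fatty acid metabolism, differed widely between the 2 IB animals. Averaged over the 3 tissues it read 7.29 in the LW male and 7.35 in the LW female, against 6.45 in the IB male and 3.52 in the IB female. Its difference of 2.33 was among the largest whose breeds did not overlap in any tissue, but did not pass (adjusted p = 0.38, limma). GPX1, glutathione peroxidase, also had unequal IB animals and differed by 1.06 (adjusted p = 0.288).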

How the data were processed

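Affymetrix porcine arrays were scanned with GCOS and, per the methods, checked with the Affy package and normalized together by RMA with libaffy. No versions are named in the sources at hand. The values deposited by the authors were log2 RMA expression values of 24123 probe sets on 64 arrays, between 1.78 and 14.47. The 188 control probe sets were left out, which left 23935. Microarray values carry no read depth, and the number of arrays limits the precision. The 2 animals of a breed were the replicates.

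Names came from the platform annotation (9774 probes) and otherwise from the study's own tables (2282). Some of those tables list genes that the study picked for breed or tissue differences on these arrays. Where both gave a name, 1454 of 1912 were the same symbol.

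The main comparison took each animal's mean over the 3 tissues and tested 2 LW against 2 IB animals with limma 3.58.1 (R 4.3.3). Single tissues were contrasts in 1 limma fit to the 12 arrays with a pooled spread. The interaction and the test against the other 13 tissues used per-animal differences. P-values were adjusted by Benjamini-Hochberg over all probes. Those of the tests with 1 value per animal measure the spread between these 4 animals only. Those of single tissues rest on 12 arrays taken as independent, though they came from the same 4 animals. Their pooled spread includes tissues where a probe read at the background. Simulated data had normal noise scaled to the spread of the real arrays, an assumed animal effect and the same shift in all 3 tissues. On these, the 3-tissue test recovered 34% of differences of 1 log2 unit, 92% of differences of 2 and 96% of differences of 3. These rates do not cover differences confined to the adrenal or the thyroid arrays. With the shift in thyroid only, the interaction test recovered 0% of differences of 1 log2 unit, 46% of differences of 2 and 68% of differences of 3.

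Named genes were, by rule, the brightest probe of each gene among the 12 largest called differences per direction over the 3 tissues, filled up from non-overlapping probes, the 4 per direction in each tissue, the 4 smallest p-values of the interaction and of the test against other tissues, members of each list past the threshold or otherwise the 2 largest, and central endocrine genes. TH and DBH had no named probe. The members and lists were chosen with earlier results of these data known. Figures and tables were made with Python 3.11.15.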

Additional observations from a re-analysis of the deposited data

How the results depend on the processing

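The 56 calls over the 3 tissues kept their direction in every alternative in which they were tested. Having been chosen for a wide gap on the same arrays, they could hardly change sign. Their number moved. It was between 2 and 55 when each animal in turn was left out, 18 with only probes above the median level, 32 on the natural logarithm of the log2 values, 134 with a mean-variance trend and robust prior, 26 with sex in the model, 251 after z-scoring, 26 without adrenal cortex and 24 without thyroid. Treating the 12 arrays as replicates gave 798, and with the animal as a random block 604. The estimated within-animal correlation was 0.0095.

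Single tissues moved likewise. In cortex the count was 8 to 37 without 1 animal, 26 above the median level, 26 on the natural logarithm (13 in each direction), 75 with sex in the model and 20 from its own 4 arrays. In medulla it was 17 to 32 without 1 animal, 14 above the median level, 53 with trend and robust prior and 16 from its own arrays. In thyroid it was 20 to 71 without 1 animal, 24 above the median level, 40 on the natural logarithm, 129 with trend and robust prior, 101 with sex in the model and 17 from its own arrays.

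The interaction gave 0 to 23 calls without 1 animal, 28 with sex in the model and 24 with the animal as a fixed block. The test against the other 13 tissues gave 0 to 18 without 1 animal, 18 with trend and robust prior, 54 with sex in the model and 3 without the pineal gland. Probes without overlap numbered 1418, 59 with a gap of 0.5 or more, and 3602 to 4539 without 1 animal, where fewer arrays have to be apart.

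Sign changes when 1 animal was left out were looked up only for the genes named by rule. Among these, the differences over the 3 tissues that changed sign, none past the threshold, were HSD17B7 (-0.68 to 0.083), APOE (-0.58 to 0.049), NFIL3 (-0.13 to 1.39), KCNJ5 (-0.10 to 0.66), RSAD2 (-0.56 to 1.31), DDC (-0.057 to 1.07), NR4A3 (-0.16 to 1.94) and BHLHE40 (-0.18 to 1.80). SLC5A5 read -0.040 without thyroid. The causes were not tested.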
